A study of Mus musculus with 18 samples.

Results

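Potassium channel genes were described in L3–L5 dorsal root ganglia (DRG) of mice after sham surgery, tibial fracture or tibial fracture with Protectin DX (PDX). All genes whose symbol begins with Kcn and continues with letters and an optional number were taken, and a gene was kept when its mean over the 18 deposited FPKM columns was at least 0.1. FPKM divides a gene's fragments by transcript length and library size, so that levels can be compared between genes. Of 36737 genes in the table, 98 carried such a symbol and 86 passed the limit. These comprised 37 of 40 voltage-gated, 12 of 14 inward rectifier, 12 of 14 two-pore domain and 8 of 8 calcium- or sodium-activated pore-forming genes, 15 of 17 auxiliary subunit genes and 2 of 5 antisense or other noncoding transcripts. The members just above the limit were *Kcna7* (mean FPKM 0.107), *Kcne3* (0.119) and *Kcnj15* (0.140), and the genes just below it were *Kcnmb4os1* (0.0956), *Kcnab3os* (0.0789) and, at the same level, *Kcnk7* and *Kcnj6* (0.0772). The mean FPKM in sham mice was under 0.1 for 2 members, *Kcnk16* and *Kcna7*. *Kcnk16* passed the limit through both fracture groups and *Kcna7* through the fracture group, as its mean with PDX was also under 0.1, so a higher level there is in part a condition of their membership.

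The mice were adults of the outbred CD1 strain, and each of the 3 groups held 3 males and 3 females with 1 RNA-seq library per mouse. Sham mice had surgery without fracture. The fracture group had an osteotomy of the left tibia fixed with an intramedullary pin under isoflurane and received vehicle, and the fracture plus PDX group had the same fracture and received PDX, a lipid mediator of the resolution of inflammation and a stereoisomer of protectin D1. DRG of both fracture groups were taken on day 3. The day of collection of the sham mice is not given in the sources used here. The libraries held 63235040 to 82824942 counts on genes, of which 327360 to 423120 fell on the 86 members. DRG identity was checked with 12 sensory neuron genes, all of which were expressed, from *Nefl* (mean 6015 CPM, counts scaled to the library total) to *Isl1* (59.0 CPM).

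Potassium channels set the resting potential of sensory neurons and end each action potential. Voltage-gated channels open on depolarization and comprise delayed rectifiers, fast-inactivating A-type channels, the M-current channels and the EAG and ERG channels, whereas two-pore channels carry leak current, inward rectifiers buffer potassium around glia or couple to G proteins and ATP, and calcium- or sodium-activated channels open with the ions that enter during firing. Loss of potassium channel expression in DRG is known from models of nerve injury and goes with hyperexcitable neurons.

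A pair of neighbouring two-pore genes on chromosome 14 differed from sham in opposite directions, as described below, and the sequences before their starts are shown because they differ in composition. *Kcnk5* (20140057 to 20181809, mm10, minus strand) encodes an acid-sensitive leak channel, and *Kcnk16* (20261376 to 20269199, same strand) encodes a leak channel best known from pancreatic beta cells. The gap between them is 79566 bases. The bases before the RefSeq start (build GRCm38.p6) and outside the gene of the deposited table read 5′ to 3′ as follows, with CG dinucleotides in capitals, for *Kcnk5* at chr14:20181810-20182032 and for *Kcnk16* at chr14:20269270-20269519, both on the minus strand.
Kcnk5: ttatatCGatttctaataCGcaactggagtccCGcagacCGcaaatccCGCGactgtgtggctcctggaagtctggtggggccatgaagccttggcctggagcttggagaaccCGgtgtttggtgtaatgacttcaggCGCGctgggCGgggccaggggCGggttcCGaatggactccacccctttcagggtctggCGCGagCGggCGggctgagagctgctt
Kcnk16: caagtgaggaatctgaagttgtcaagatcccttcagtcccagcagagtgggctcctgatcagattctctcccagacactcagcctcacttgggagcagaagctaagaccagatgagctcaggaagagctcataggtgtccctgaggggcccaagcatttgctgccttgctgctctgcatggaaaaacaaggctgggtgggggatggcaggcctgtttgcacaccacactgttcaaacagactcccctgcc
The 223 bases of *Kcnk5* held 16 CG dinucleotides, and the 250 bases of *Kcnk16* held 0. With the full window of 250 bases, *Kcnk5* held 19. Over 32851 promoter windows of 250 bases, the median was 6 CG dinucleotides, with quartiles of 2 and 16. The GC box GGGCGG, searched on both strands, occurred 3 times before *Kcnk5* and 0 times before *Kcnk16*, and 32.7% of all windows held it. RefSeq entries were matched by symbol for 63 of the 86 members. The AP-1 letters TGANTCA (6.75% of all windows), the CRE letters TGACGTCA (1.55%) and the left part of the RE1 motif, TTCAGCACC (0.301%), each searched on both strands, did not occur in the windows of the 7 genes with an entry among the 8 members that passed a test against sham. These are matches of letters only, and windows of this length say nothing about binding elsewhere.

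Levels were compared between genes by FPKM in sham mice, given as mean ± SD of 6 mice with no test. The 86 members summed to 776.6 FPKM, of which voltage-gated genes held 43.5%, auxiliary subunits 38.2%, two-pore genes 8.39%, inward rectifiers 5.16% and calcium- or sodium-activated genes 4.66%. In all, 22 members were at 10 FPKM or more, 35 between 1 and 10, and 29 under 1. Levels of the 57 members at 1 FPKM or more varied little between sham mice, with a median coefficient of variation of 10.6% and a range from 2.61% (*Kcnab2*) to 38.4% (*Kcnj13*, an inward rectifier of epithelia). *Kcnk4* (31.0%) and *Kcnn2* (25.9%) followed *Kcnj13*.

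Among voltage-gated genes the highest were *Kcnd1*, a pore subunit of A-type channels, at 44.3 ± 2.37 FPKM, *Kcna2*, a juxtaparanodal delayed rectifier, at 28.7 ± 1.22, and *Kcns1*, a silent modifier of Kv2 channels, at 26.1 ± 3.49. The spreads of *Kcna2* and *Kcns1* overlapped, as did that of *Kcna6* (25.8 ± 1.99). The classical partner of *Kcna2*, *Kcna1*, was at 21.8 ± 1.28, and the A-type gene of small neurons, *Kcna4*, at 3.25 ± 0.567. The Kv2 pore gene *Kcnb2* (6.09 ± 0.324) was lower than the modifiers *Kcns1* and *Kcns3* (16.7 ± 2.09). *Kcnc4* stood at 12.1 ± 1.29, *Kcnd3* at 9.08 ± 0.771, and *Kcnq3*, an M-current channel gene, at 2.11 ± 0.148. Of the 3 Kv4 pore genes, *Kcnd1* and *Kcnd3* were thus above *Kcnd2* (0.307 ± 0.0301).

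Auxiliary subunits were led by *Kcnab2*, a cytoplasmic beta subunit of Kv1 channels, at 134.2 ± 3.505 FPKM, the highest level of all members and the lowest coefficient of variation among those at 1 FPKM or more. *Kcnip3* (46.9 ± 3.13) and *Kcnip2* (40.1 ± 3.09), calcium-binding partners of Kv4 channels, came next, and *Kcnip1* was at 5.498 ± 0.41. Two-pore genes were led by *Kcnk1* at 38.8 ± 3.42, followed by *Kcnk12* (5.62 ± 0.507) and *Kcnk5* (3.83 ± 0.621). The mechanically and thermally gated leak channel genes were lower, with *Kcnk4* at 3.23 ± 1.001, *Kcnk2* at 2.72 ± 0.618 and *Kcnk10* at 0.858 ± 0.0595, and the nociceptor leak channel gene *Kcnk18* was at 2.67 ± 0.384. From *Kcnk5* to *Kcnk18* the spreads of neighbours in the order overlapped.

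Inward rectifiers were led by *Kcnj10*, the potassium buffering channel of satellite glia, at 15.4 ± 0.953 FPKM, by *Kcnj12* (10.6 ± 0.830) and by *Kcnj3*, a G protein-coupled subunit (3.49 ± 0.495). Of the ATP-sensitive pore genes, *Kcnj11* was at 3.35 ± 0.496 and *Kcnj8* at 0.820 ± 0.283. Sodium-activated *Kcnt1* led the last pore family at 17.5 ± 0.746, above *Kcnn1* (9.54 ± 1.40), *Kcnn4* (2.65 ± 0.288), the large-conductance gene *Kcnma1* (2.48 ± 0.239) and *Kcnt2* (0.822 ± 0.157). The antisense transcripts *Kcnmb4os2* (0.327 ± 0.0599) and *Kcnd3os* (0.175 ± 0.0554) were low. The libraries were made with a stranded kit, but whether strand was used in counting is not given in the sources used here, so reads of *Kcnmb4* and *Kcnmb4os2*, which overlap on opposite strands, may not be fully separated.

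**Figure D1:**
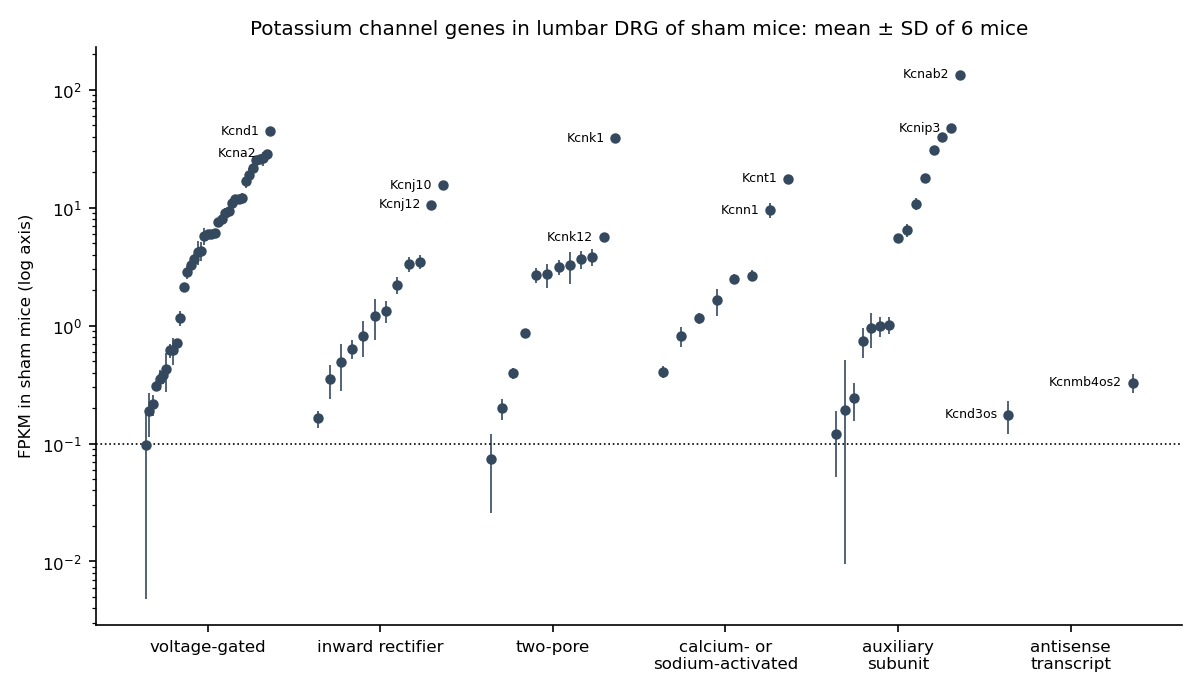
Mean FPKM (log axis) of the 86 potassium channel genes in 6 sham mice, by family, with SD as bars; lower bars that would reach 0 are cut. The 2 highest genes of each family are named, the dotted line marks the limit of 0.1 FPKM, and *Kcnab2* stands highest at 134 FPKM.

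Fracture on day 3 was compared with sham to ask which channel genes differ in DRG. Of 86 members tested, 5 rose and 1 fell at an adjusted p under 0.05 by edgeR's quasi-likelihood test with Benjamini-Hochberg adjustment over 20659 genes. That is 6.98% of members, beside 2.92% of all genes tested. Without *Kcnk16* and *Kcna7*, the 2 members under the limit in sham, it was 5 of 84 (5.95%), a count added after seeing the data. The members that rose were 2 voltage-gated genes, *Kcnf1* and *Kcnh1*, the sodium-activated *Kcnt1*, the auxiliary *Kcnip2* and the two-pore *Kcnk16*, and the member that fell was the two-pore *Kcnk5*. Apart from *Kcnk16* and *Kcnk5*, these differences were at most 19.6%. Leaving out 1 mouse changed the number of members called to between 1 and 7, and *Kcnf1* was called in each of these 12 fits.

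*Kcnf1* (chromosome 12, 17172100 to 17176888) encodes a silent subunit that forms channels only together with Kv2 subunits. Its lowest, median and highest values were 27.6, 31.4 and 33.9 CPM in sham and 34.9, 37.5 and 39.2 CPM in fracture mice, where CPM are scaled by edgeR's TMM method. The 2 groups did not overlap, and the log2 fold change was 0.26 ± 0.049 (SE; adjusted p = 0.0179 by edgeR). *Kcnh1* (chromosome 1, 192190774 to 192510159), an EAG channel, ranged from 44.0 to 50.6 CPM with a median of 49.0 in sham and from 51.1 to 58.3 with a median of 54.8 in fracture mice. These groups did not overlap either, with a log2 fold change of 0.18 ± 0.044 (adjusted p = 0.0439 by edgeR).

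*Kcnt1* (chromosome 2, 25863734 to 25917080) ranged from 172 to 189.7 CPM (median 184) in sham and from 189 to 220.3 CPM (median 207) in fracture mice. In 5 of 6 fracture mice it was above all sham mice, and the log2 fold change was 0.16 ± 0.039 (adjusted p = 0.0418 by edgeR). *Kcnip2* (chromosome 19, 45791839 to 45816061) ranged from 142 to 175 CPM (median 166) in sham and from 170.5 to 212 CPM (median 189) in fracture mice, with a log2 fold change of 0.23 ± 0.053 (adjusted p = 0.0356 by edgeR). Again 5 of 6 fracture mice were above all sham mice. Leaving out 1 mouse ended the call in 10 of 12 fits for *Kcnip2* and in 9 of 12 for each of *Kcnt1* and *Kcnh1*.

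*Kcnk16* showed the largest difference among the members. It passed the FPKM limit through both fracture groups, so the tests of a higher level there are in part fixed by its membership. In sham it was barely detected, with 3 to 28 reads per library and 0.0428, 0.199 and 0.351 CPM as lowest, median and highest value, whereas fracture mice had 28 to 169 reads and 0.362, 0.837 and 2.41 CPM. The groups met at their edges but did not overlap, and the log2 fold change was 2.36 ± 0.52 (adjusted p = 0.0306 by edgeR; exact permutation test of log2 CPM, two-sided, p = 0.00216, the smallest that 6 against 6 mice allow). Fracture male 2 was the highest mouse, and without it the log2 fold change was 1.85 with an adjusted p of 0.0509 by edgeR. The call was also lost when sham male 3, sham female 2, fracture female 2 or fracture female 3 was left out. By limma it was not called either, at 1.39 ± 0.32 on log2(FPKM + 0.1) (adjusted p = 0.0506) and 0.35 ± 0.10 on log2(FPKM + 1) (adjusted p = 0.0993), scales on which the pseudocount shrinks the fold of a low gene.

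*Kcnk5* moved the other way. It ranged from 11.0 to 18.4 CPM (median 14.2) in sham and from 8.33 to 11.3 CPM (median 9.52) in fracture mice, and 5 of 6 fracture mice were below all sham mice. The log2 fold change was -0.56 ± 0.11 (adjusted p = 0.0215 by edgeR; exact permutation test, two-sided, p = 0.00433). The call ended without sham female 2, fracture male 3 or fracture female 2.

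Counted with the called ones, most members leaned toward higher values in fracture mice. At an unadjusted p under 0.05, 22 members (25.6%) were higher and 4 (4.65%) lower, beside 8.79% of all genes higher and 9.69% lower. The median log2 fold change was 0.07 over the members and 0.00 over all genes, and 60 of 86 members were above 0. Voltage-gated genes made up 12 of the 22, with a median of 0.09 over the 37 genes. *Kcnd1* was one of them, with a median of 255 CPM in sham and 276 CPM in fracture mice (log2 fold change 0.10 ± 0.038, adjusted p = 0.161 by edgeR). Of the members next to the threshold, *Kcnh6*, an ERG channel, had a log2 fold change of 0.17 ± 0.045 (adjusted p = 0.0543 by edgeR), *Kcnj10* of 0.20 ± 0.055 (0.0727) without overlap between groups, and *Kcnk18* of 0.38 ± 0.12 (0.117). Of the inward rectifiers 0 of 12 were called. The 4 uncalled lower members with the smallest unadjusted p were *Kcnj2* (-0.38 ± 0.15, adjusted p = 0.204 by edgeR), *Kcnd2* (-0.33 ± 0.14, 0.225), *Kcnk6* (-0.48 ± 0.21, 0.234) and *Kcnt2* (-0.27 ± 0.13, 0.291), of which *Kcnt2* did not reach an unadjusted p of 0.05.

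**Figure D2:**
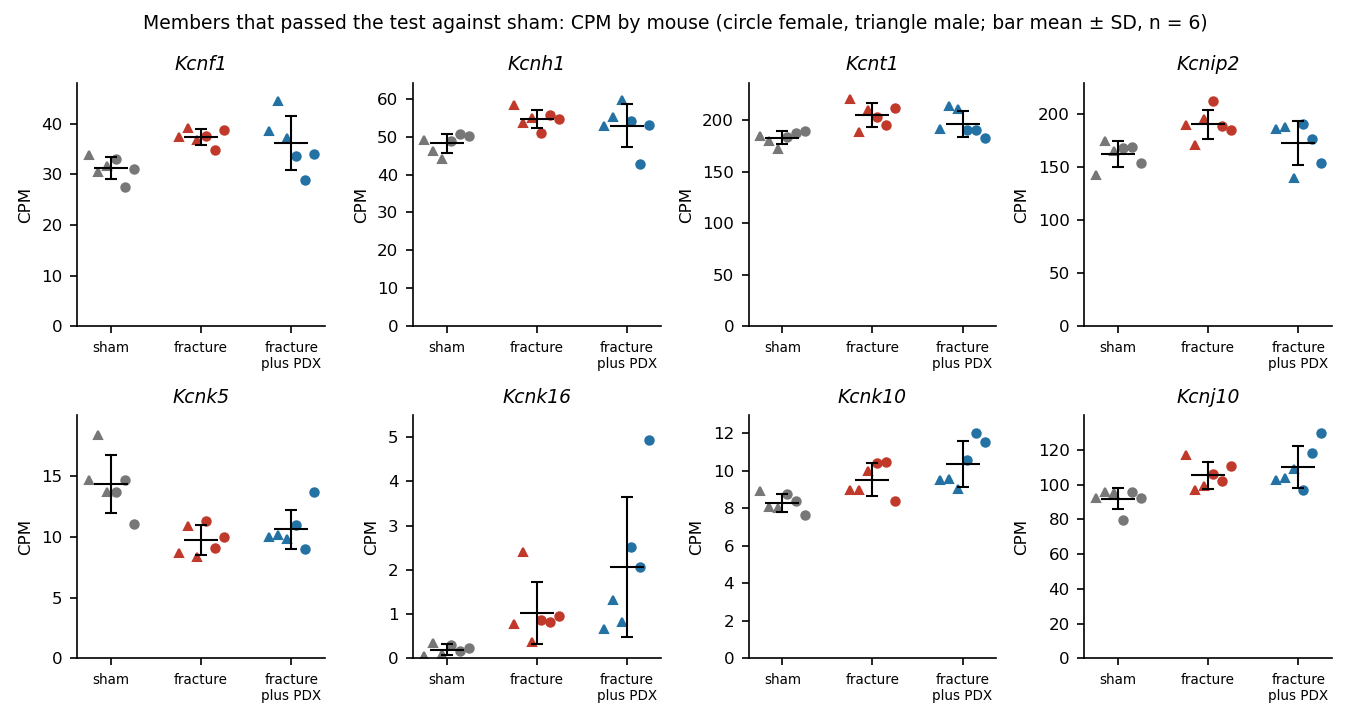
CPM (axis from 0) of the 8 members called against sham in either fracture group, by mouse, for sham, fracture and fracture plus PDX, with circles for females, triangles for males and bars for mean ± SD (n = 6). *Kcnk16* rises from at most 0.351 CPM in sham to 2.41 in 1 fracture male and 4.94 in 1 female with PDX, and *Kcnk5* is below sham in both fracture groups with some overlap.

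Marker genes of whole cell types also differed between these groups. The summed level of the 12 sensory neuron genes was 19640 to 21253 CPM in sham and 21666 to 23066 CPM in fracture mice, without overlap, and 5 of the 12 rose. Placental genes, which are foreign to DRG, summed to 197 to 636 CPM in sham and 31.6 to 308 CPM in fracture mice, and 1 of 9 fell. When the mean of the sensory neuron list was added to the fit, 0 members and 0 of all genes were called, against 6 members and 603 genes without it, and the estimate of *Kcnk5* turned to 0.13 ± 0.19. The other called members kept their direction with larger standard errors, at 3.44 ± 1.23 for *Kcnk16*, 0.39 ± 0.12 for *Kcnip2*, 0.18 ± 0.12 for *Kcnf1*, 0.11 ± 0.097 for *Kcnt1* and 0.09 ± 0.11 for *Kcnh1*. As the summed level of this list did not overlap between the groups, the fit may hardly separate the list from the group. The covariate itself was the mean of log2 CPM of the list, whose overlap between groups was not examined. With the placenta list added, 0 members and 1 gene were called, and all 6 members kept their direction, with *Kcnk5* at -0.38 ± 0.17 and *Kcnf1* at 0.29 ± 0.076. Of the other lists, 2 of 10 satellite glia genes and 1 of 8 large neuron genes rose, 2 of 10 endothelial, 2 of 10 macrophage and 1 of 8 fibroblast genes fell, and 0 were called among nociceptor, myelinating Schwann, mural, neutrophil, skeletal muscle and spinal cord genes by edgeR (of the last, 2 could be tested). Without a call, the skeletal muscle genes had a median log2 fold change of 2.02, with a summed level of 38.2 to 703 CPM in sham and 63.3 to 1418 CPM in fracture mice, and the neutrophil genes one of -0.78, with 83.4 to 369 CPM in sham and 89.9 to 192 CPM in fracture mice. The part of cell content in the members' differences was not tested, and in bulk tissue fewer cells of a type cannot be told apart from less RNA per cell.

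Across the 18 mice, after group and sex means were removed, each member was related to each of 14 marker lists, 1204 relations in all. *Kcnk5* and the sensory neuron list were the 1 pair that passed adjustment of r on log2 CPM, with Pearson's r = -0.82 (permutation p = 4.00e-05, adjusted p = 0.0482) and Spearman's rho = -0.80 (permutation p = 0.00018, adjusted p = 0.194). Without the 2 mice farthest from the median of the list, r was -0.70. The permutations treated the 18 residuals as independent, which they are not once group and sex means are removed. These p-values are thus likely too small, and a pass this near the threshold may not hold. On log2(FPKM + 0.1), r was -0.69 with an adjusted p of 0.130, which missed the threshold, while 1 other pair passed on that scale, *Kcnk16* and the nerve injury list, described below.

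Fracture plus PDX was compared with sham with the same sham mice, so the values stand beside those above and are not a second test of them. Of 86 members, 3 rose and 0 fell at an adjusted p under 0.05 by edgeR, 3.49% beside 4.50% of all 20574 genes. Without *Kcnk16* and *Kcna7* it was 2 of 84 (2.38%). At an unadjusted p under 0.05, 25 members (29.1%) were higher and 5 (5.81%) lower, beside 8.97% and 8.99% of all genes. The median log2 fold change was 0.06 over the members and 0.00 over all genes. The 3 called members were 2 two-pore genes and 1 inward rectifier.

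*Kcnk16* had 0.672, 1.69 and 4.94 CPM as lowest, median and highest value with PDX, and its log2 fold change from sham was 3.17 ± 0.45 (adjusted p = 0.00293 by edgeR), with all 6 mice above all sham mice. The 3 females were the highest of the group, and leaving out any 1 mouse kept the call with log2 fold changes between 2.88 and 3.76. Here too, *Kcnk16* passed the FPKM limit through both fracture groups, so its higher level is in part a condition of its membership. *Kcnk10* (chromosome 12, 98429437 to 98578310), a mechanically and thermally gated leak channel, ranged from 7.65 to 8.90 CPM (median 8.23) in sham and from 9.04 to 12.01 CPM (median 10.1) with PDX. The groups did not overlap, and the log2 fold change was 0.32 ± 0.076 (adjusted p = 0.0317 by edgeR). In fracture mice its median was 9.48 CPM. *Kcnj10* (chromosome 1, 172341210 to 172374085) ranged from 79.8 to 95.9 CPM (median 93.6) in sham and from 96.8 to 129 CPM (median 106) with PDX, again without overlap, with a log2 fold change of 0.27 ± 0.070 (adjusted p = 0.0493 by edgeR). *Kcnj10* lost its call in 11 and *Kcnk10* in 10 of the 12 fits that left out 1 mouse. Of the satellite glia list, to whose cells *Kcnj10* belongs, 2 of 10 genes rose, and its summed level was 3676 to 4633 CPM in sham and 4381 to 5104 CPM with PDX; the part of glial content was not tested.

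*Kcnk5* was again lower, at 9.01 to 13.7 CPM (median 10.1), with a log2 fold change of -0.43 ± 0.12 that missed the threshold (adjusted p = 0.0623 by edgeR). Near the threshold on the higher side were *Kcnh6* (0.20 ± 0.056, adjusted p = 0.0562 by edgeR), *Kcnma1* (0.25 ± 0.072, 0.0726) and the acid-sensitive leak channel gene *Kcnk9* (0.54 ± 0.17, 0.0940). On the lower side were the auxiliary genes *Kcne4* (-0.46 ± 0.17, 0.157) and *Kcnmb2* (-0.42 ± 0.16, 0.162) and *Kcnj2* (-0.33 ± 0.13, 0.204). The summed sensory neuron level was 21126 to 23535 CPM and the placental level 30.5 to 155 CPM in these mice. Of these lists 4 of 12 sensory neuron genes rose and 8 of 9 placental genes fell (median log2 fold change -2.23), and 2 of 10 endothelial and 1 of 10 macrophage genes fell as well. The part of cell content was not tested here either. With either list in the fit 0 members were called, as were 0 of all genes. The estimates of the 3 called members did not turn, at 0.50 ± 0.12 (sensory neuron list) and 0.30 ± 0.15 (placenta list) for *Kcnj10*, 0.49 ± 0.16 and 0.34 ± 0.17 for *Kcnk10*, and 4.38 ± 0.72 and 1.88 ± 0.85 for *Kcnk16*. With the sensory neuron list, those of *Kcnk5* and *Kcnj2* turned to 0.19 ± 0.16 and 0.12 ± 0.25.

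**Figure D3:**
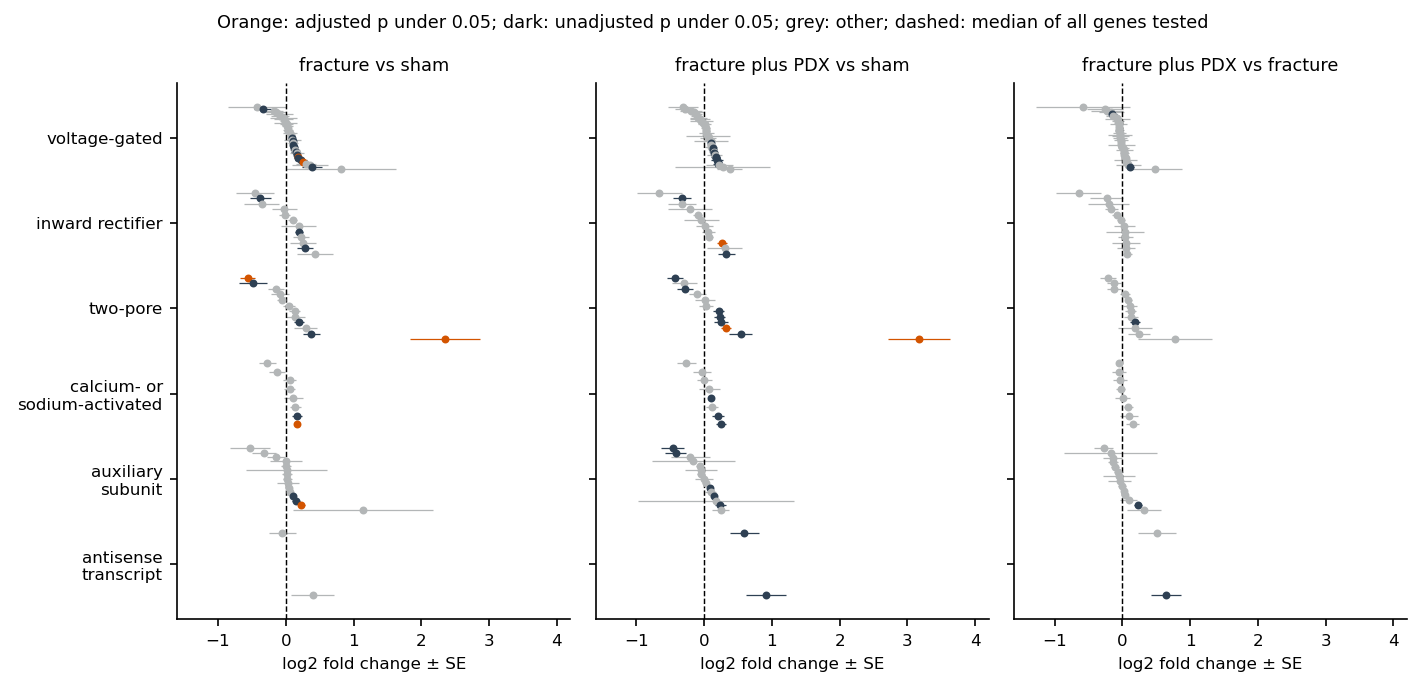
Log2 fold change ± SE of each member by family in the 3 comparisons; orange marks an adjusted p under 0.05, dark an unadjusted p under 0.05, grey the rest, and the dashed line the median of all genes tested. *Kcnk16* lies apart at 2.36 and 3.17 against sham, while against fracture no member is orange.

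*Kcnk16* was also set beside 12 genes known to respond to nerve injury, among them *Atf3* and *Sprr1a*. Of the 11 that could be tested, 6 rose against sham in fracture mice and 8 with PDX. The 5 mice with the highest *Kcnk16* (1.31 CPM or more, against at most 0.956 in the other 13) were also the 5 with the highest mean of this list (4.45 or more against at most 3.77 log2 CPM). They were fracture male 2 and, with PDX, male 2 and all 3 females. After group and sex means were removed, r was 0.61 over the 18 mice (permutation p = 0.00683, adjusted p = 0.249; Spearman's rho = 0.46, permutation p = 0.0564, adjusted p = 0.444) and 0.35 without the 2 mice farthest from the median. On log2(FPKM + 0.1), r was 0.80 (permutation p = 3.00e-05, adjusted p = 0.0361; Spearman's rho = 0.66, permutation p = 0.0036, adjusted p = 0.212) and 0.62 without those 2 mice, so whether r passed depended on the scale. This pair was singled out after its values had been seen. As *Kcnk16* passed the FPKM limit through both fracture groups, its higher values there are in part a condition of its membership. The permutations of this relation treated the residuals as independent, so its p-values are likely too small.

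**Figure D4:**
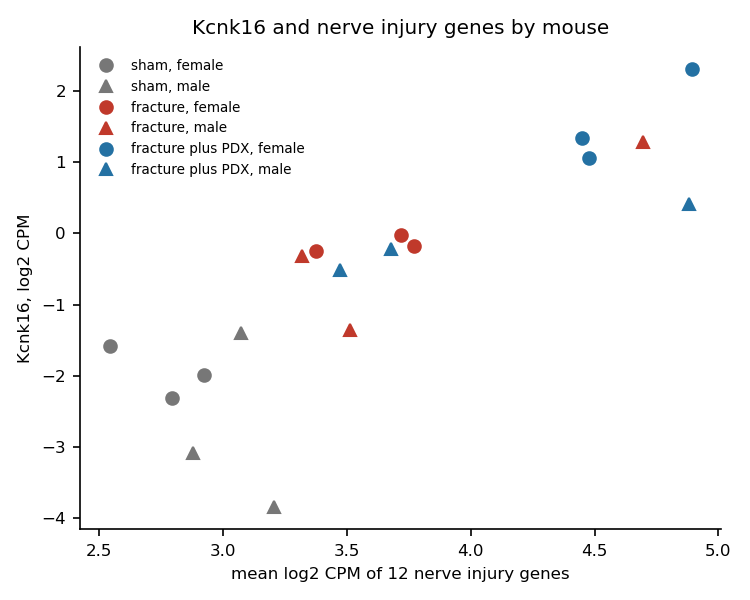
Log2 CPM of *Kcnk16* against the mean log2 CPM of 12 nerve injury genes, 1 point per mouse, by group and sex. The sham mice lie at the lower left, and 5 mice, 1 with fracture alone and 4 with PDX, lie at a list mean of 4.45 or more.

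Fracture plus PDX was compared with fracture to ask whether treatment moved the channel genes. Of 85 members tested (*Kcne2* was too low), 0 were called at an adjusted p under 0.05 by edgeR, by DESeq2 and by limma on log2 FPKM, beside 0% of 20562 genes by edgeR. At an unadjusted p under 0.05, 4 members (4.71%) were higher and 1 (1.18%) lower, beside 2.86% and 2.55% of all genes. The log2 fold changes lay between -0.65 and 0.78, with a median of -0.01 over the members and 0.00 over all genes. Without a call, the neutrophil genes had a median of 1.14, with 89.9 to 192 CPM in fracture mice and 79.2 to 472 CPM with PDX. The skeletal muscle genes had a median of -1.78, with 63.3 to 1418 CPM in fracture mice and 18.7 to 661 CPM with PDX. The part of cell content was not tested in this comparison.

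The smallest p belonged to *Kcnmb4*, the neuronal beta subunit of large-conductance channels. It ranged from 22.3 to 26.2 CPM (median 23.0) in fracture and from 24.1 to 30.5 CPM (median 27.7) with PDX, and 5 of 6 treated mice were above all fracture mice. Its log2 fold change was 0.23 ± 0.062 (adjusted p = 0.811 by edgeR). The antisense transcript *Kcnmb4os2* had a log2 fold change of 0.64 ± 0.22 (adjusted p = 0.887), with 43 to 75 reads in fracture and 49 to 113 reads in treated mice. *Kcnk12* (0.19 ± 0.075) and *Kcnc4* (0.12 ± 0.054) were the other higher members with an unadjusted p under 0.05, and *Kcns3* (-0.15 ± 0.066) was the lower one. Next on the lower side, without reaching that level, were *Kcnmb2* (-0.28 ± 0.14), *Kcnj16* (-0.65 ± 0.33) and *Kcnip4* (-0.11 ± 0.058).

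The 6 members called after fracture were also set against the treated mice. *Kcnf1* had a median of 35.6 CPM with PDX and a log2 fold change from fracture of -0.05 ± 0.066, *Kcnh1* of -0.04 ± 0.059, *Kcnt1* of -0.06 ± 0.041 and *Kcnip2* of -0.14 ± 0.078. *Kcnk5* had 0.13 ± 0.10 and *Kcnk16* 0.78 ± 0.55. None of these 6 differences passed adjustment.

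Males were compared with females over all 18 mice with group as a covariate. Of 86 members, 0 were called by edgeR, beside 0.291% of 21340 genes, and 13 had an unadjusted p under 0.05, beside 10.1% of all genes. By DESeq2, 3 were called, and by limma 0. *Kcnh6* had the smallest p, with a range of 44.9 to 64.3 CPM (median 52.6) in 9 males and 43.2 to 50.7 CPM (median 48.8) in 9 females, which overlapped (log2 difference, male minus female, 0.19 ± 0.042, adjusted p = 0.0640 by edgeR). *Kcna4* (0.25 ± 0.072, adjusted p = 0.164 by edgeR) and *Kcna1* (0.22 ± 0.066, 0.194) came next, and these 3 were the ones DESeq2 called. In all, 9 members were higher in males and 4 lower at an unadjusted p under 0.05. On the lower side in males were *Kcng4* (-0.22 ± 0.080), *Kcne4* (-0.35 ± 0.13) and *Kcnk4* (-0.27 ± 0.11).

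Whether fracture acted differently in the sexes was tested by an interaction over the sham and fracture mice. Of 86 members, 0 were called, beside 0% of all genes, and 9 had an unadjusted p under 0.05, beside 7.20% of all genes. The sexes moved in opposite directions, with no overlap between sham and fracture mice of either sex, in 3 members (3.49%), *Kcnj3*, *Kcnmb4* and *Kcna7*, beside 0.678% of all genes tested. For PDX against fracture this was so in 0 of 85 members, beside 0.433% of all genes. Of the 3 members, *Kcna7* met the FPKM limit through the fracture group, so its place in that count is in part a condition of its membership. The share was not taken without it. In *Kcnj3* all 3 fracture males (19.6 to 21.5 CPM) were above the sham males (17.3 to 18.4 CPM), and all 3 fracture females (17.2 to 19.8 CPM) were below the sham females (20.8 to 24.2 CPM), with an interaction of 0.43 ± 0.11 on the log2 scale (adjusted p = 0.513 by edgeR). *Kcnmb4* (-0.37 ± 0.11), *Kcnj8*, the pore of a vascular ATP-sensitive channel (-1.01 ± 0.28), pointed the opposite way. *Kcnk5*, with the next smallest p on that side, had -0.36 ± 0.21 (unadjusted p = 0.112, adjusted p = 0.759 by edgeR) and was lower after fracture in both sexes. The largest estimate, 4.12 ± 1.07 for *Kcna7*, rested on 0 to 58 reads per library, for a gene that met the FPKM limit through the fracture group. For PDX the interaction gave 0 members called, beside 0.00486% of all genes, and 5 with an unadjusted p under 0.05, beside 4.14% of all genes. *Kcna5* (1.27 ± 0.42), *Kcnf1* (0.28 ± 0.11) and *Kcng2* (0.47 ± 0.22) lay on one side and *Kcnk16* (-2.19 ± 0.81), *Kcnq5* (-0.41 ± 0.15) and *Kcnh8* (-0.52 ± 0.22) on the other, *Kcng2* with an unadjusted p of 0.0527 and so not among the 5, and each with an adjusted p of 0.998 by edgeR.

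**Figure D5:**
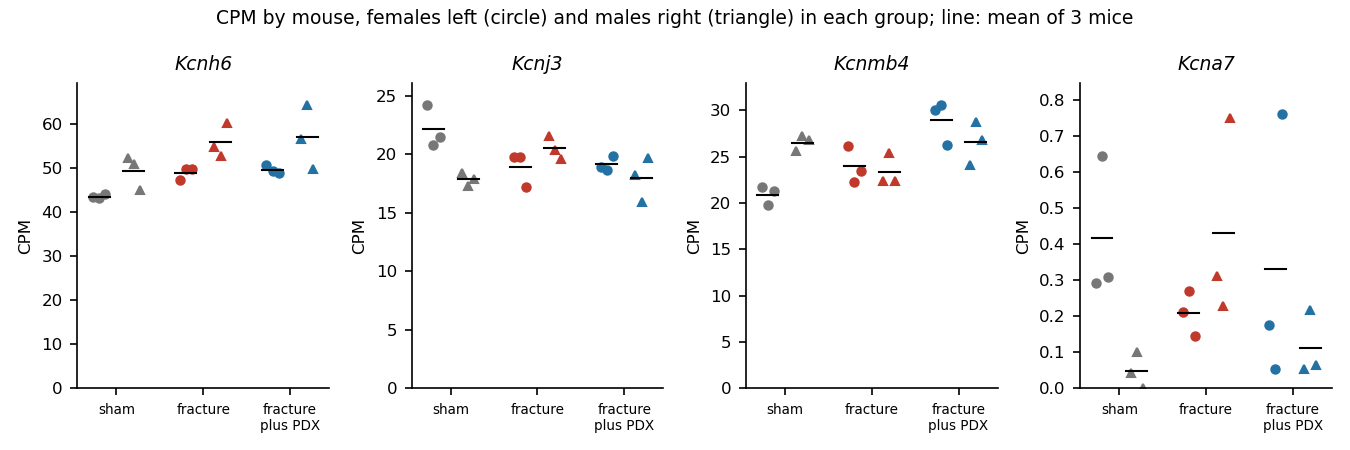
CPM (axis from 0) of *Kcnh6*, *Kcnj3*, *Kcnmb4* and *Kcna7* by mouse, with females (circles) at the left and males (triangles) at the right of each group and lines at the mean of 3 mice. In *Kcnj3* the sham sexes are apart (20.8 to 24.2 CPM in females, 17.3 to 18.4 in males) and the fracture sexes are not.

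Genes that act with these channels were taken from 4 lists. Of 13 partners of Kv channels 0 rose and 1 fell in fracture mice (beside 2.92% of all genes called), *Dlg1*, a scaffold protein (log2 fold change -0.32 ± 0.064, adjusted p = 0.0200 by edgeR). With PDX, *Dlg1* (-0.28 ± 0.063, 0.0256) was again lower than in sham, and *Cntn2*, an axonal adhesion protein of the juxtaparanode where Kv1 channels cluster, was higher (0.21 ± 0.040, 0.0110), 2 of 13 beside 4.50% of all genes. None of the 3 tested gamma subunits of large-conductance channels, the 2 sulfonylurea receptors and the 6 chromatin repressors was called in any of the 3 group comparisons by edgeR, where *Rest*, a repressor of neuronal genes, had a log2 fold change of -0.19 ± 0.077 after fracture (adjusted p = 0.214). Against fracture, 0 of these genes were called with PDX.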

How the data were processed

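Bulk RNA-seq of L3–L5 DRG from 18 mice was used. The authors deposited raw counts per gene and FPKM values, which they scaled by transcript length and mapped fragments, for 36737 genes with mm10 coordinates. Per the labels, cutadapt 1.10, FastQC, HISAT2 and StringTie were used. The counting program is not given in the sources used here. Columns named Con were taken as the sham mice. The fits used edgeR 4.0.16 under R 4.3.3 (filterByExpr with a minimum count of 10, TMM, robust quasi-likelihood fit, sex as covariate, 12 libraries per comparison, 18 for sex), with Benjamini-Hochberg adjustment over every gene tested. The SE beside an edgeR log2 fold change was derived as its absolute value divided by the square root of the F statistic. It is thus approximate, above all for genes with few reads. DESeq2 1.42.0 and limma 3.58.1 were alternatives. The fits were tested on simulated data. Single genes were tested by exact permutation of log2 CPM (prior count 2), and relations by 100000 permutations of the residuals, taken as independent. The members and lists were chosen with earlier results of these data known. Named genes were those with an adjusted p under 0.05, the 4 (sex, 3) per direction with the smallest remaining p, and, for levels only, the highest, the most variable and preset members; some of these are not reported here. Alternatives were upper-quartile scaling, other count filters, no sex covariate, a replicate block, a joint fit, FPKM with pseudocounts of 0.1 and 1, FPKM limits, leaving out each mouse and, added after seeing the data, marker lists as covariates. Genes with few reads, such as *Kcnk16* and *Kcna7*, also carry counting error.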

Additional observations from a re-analysis of the deposited data

Results flagged for a closer look

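Each group of 6 mice was examined, for the 38 genes named with a test, for a mouse whose gap to its nearest neighbour is unusually large for the range of the group. Of 114 groups 8 showed one (7.02%), and chance alone gives about 1 in 20. In *Kcnk16*, fracture male 2 had 2.41 CPM against 0.362 to 0.956 in the other fracture mice. In *Kcna7*, fracture male 3 had 0.750 CPM against 0.145 to 0.311, and PDX female 3 had 0.761 CPM against 0.0538 to 0.218; this gene met the FPKM limit through the fracture group. In *Kcnj10*, sham female 1 had 79.8 CPM against 92.2 to 95.9. In *Kcnk18*, PDX female 2 had 9.66 CPM against 12.3 to 13.0. In *Kcnd2*, PDX male 1 had 2.02 CPM against 1.22 to 1.49, and in *Kcnj2*, PDX female 3 had 7.88 CPM against 5.50 to 6.33. In *Kcnmb4os2*, sham female 2 had 0.497 CPM against 0.765 to 0.866.

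In 3 of 86 members (3.49%, beside 0.678% of all genes tested) all fracture mice of one sex lay above the sham mice of that sex and all of the other sex below. Of these, *Kcna7* met the FPKM limit through the fracture group, so its place in the count is in part a condition of its membership. The interactions of sex and fracture were 0.43 for *Kcnj3*, 4.12 for *Kcna7* and -0.37 for *Kcnmb4* on the log2 scale, and none passed adjustment over all genes by edgeR (adjusted p between 0.513 and 0.536).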

How the results depend on the processing

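Against sham, 6 members were called after fracture. The count was 9 by DESeq2 (with *Kcnh6*, *Kcnj10* and *Kcnk18* added), 3 with a replicate block, 2 by limma on log2(FPKM + 0.1) and on log2(FPKM + 1) (*Kcnf1* and *Kcnk5*, so that *Kcnk16* lost its call), 0 with the sensory neuron or the placenta list as a covariate, and 1 to 7 when 1 mouse was left out. With PDX, 3 members were called against sham, and the count was 9 by DESeq2, 6 with all 18 libraries in one fit, 5 with the replicate block, 1 without a filter on low counts, with at least 10 counts in every library and by both limma fits, 0 with either list as a covariate, and 1 to 5 when 1 mouse was left out. Under the block *Kcnk10* lost its call (adjusted p = 0.099), and *Kcnh6*, *Kcnma1* and *Kcnk9* gained one, while after fracture *Kcnip2*, *Kcnt1* and *Kcnh1* lost theirs. The correlation of deviations was over 0.1 in 4 of 18 pairs of mice with the same sex and number (-0.130 to 0.217). These were all 3 male pairs of PDX against fracture and 1 female pair of PDX against sham, and in no comparison were all 6 pairs over 0.1, so the numbers were not taken as pairs. The 0 calls of PDX against fracture were unchanged in all 9 other settings and 12 left-out mice. For sex, DESeq2 called 3 members, and 0 to 1 were called when 1 mouse was left out. With the sensory neuron list as a covariate, the log2 fold change turned to 0.13 for *Kcnk5* and 0.011 for *Kcnk6* after fracture, and to 0.19 for *Kcnk5* and 0.12 for *Kcnj2* with PDX. The cause was not tested. With FPKM limits of 0.05 and 0.5, 92 and 67 genes would be members.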
